A study of Mus musculus with 16 samples.

Results

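This comparison sets the hearts of Ppara-flox mice given endotoxin against those of Ppara-flox mice given the vehicle. Its members are 8 of the 16 libraries of the series, taken by the labelled genotype and treatment, and nothing measured entered the choice. The mice were male C57BL/6J animals 8 to 12 weeks old with floxed alleles of Ppara, the gene of the nuclear receptor PPARα. They are the controls of a deletion study, so both groups carry the floxed alleles and PPARα is not deleted in either. One group of 4 received lipopolysaccharide (LPS, the endotoxin of Gram-negative bacteria) at 5 mg/kg into the peritoneum. The other group of 4 received phosphate-buffered saline (PBS), and heart tissue was taken from both at 12 h. The remaining 8 libraries, from mice lacking PPARα in their cardiomyocytes and given the same treatments, served here for the estimate of spread and for 1 test between genotypes.

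LPS is recognised by Toll-like receptor 4 on macrophages, endothelial cells and other cells, and the cytokines that follow reach the heart muscle, which contracts less in septic shock. A beating heart renews its ATP mainly in mitochondria, and fatty acids are its usual fuel. Contractile, calcium-handling and mitochondrial transcripts therefore make up much of its RNA, and a small fold change in one of them can move more RNA than a large one in a cytokine gene. For that reason each change is given here both as a fold and as counts per 1000000 (CPM), that is, as a share of the scaled library.

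The 8 libraries held 65569134 to 75436023 estimated counts, with 20762 to 21506 gene symbols detected in each. Low values pile up at multiples of 4, so the totals divided by 4, 16392284 to 18859006, were taken as nearer to the read pairs counted. The 4 PBS and 4 LPS libraries separated fully on the first principal component (63.1% of the variance over the 1000 genes that varied most), and LPS replicate 3 lay nearest to the PBS side. The extraction protocol in the labels mentions islets, but all 6 islet marker genes were at 0 in these 8 libraries. Mitochondrially encoded transcripts took 24.8% ± 2.65 of the counts after PBS and 24.9% ± 1.72 after LPS (SD, n = 4 each, exact permutation p = 0.971, two-sided, where 0.0286 is the smallest p that 4 against 4 allows). The column headers carry higher numbers in all LPS tables than in all PBS tables. What these numbers stand for is not given in the sources used here, and any effect of it cannot be told apart from LPS.

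LPS changed the level of a large part of the cardiac transcriptome in both directions. Of 18713 genes tested, 3771 were higher and 3583 lower after LPS at an adjusted p under 0.05 (edgeR quasi-likelihood test with Benjamini-Hochberg adjustment), which is 20.2% and 19.1% of the genes tested and 39.3% in all. A gene past this threshold is written below as having risen or fallen. Counts of list members below are to be read against these shares, and a list near them shows little of its own. The share called in either direction grew with level, to 51.1% of genes at 10 to 100 CPM and 63.8% at 100 to 1000 CPM. Lists of abundant genes are thus to be read against these higher shares. Of the 1142 genes at 100 to 1000 CPM, 307 rose and 422 fell. At 2-fold or more, 1511 rose (8.07%) and 1514 fell (8.09%). The 4 LPS values lay wholly above or wholly below the 4 PBS values in 7037 genes (37.6%). The median log2 fold change over all genes was 0.01.

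Measured as CPM, the changes were far from even. Genes that rose gained 96707 CPM together and genes that fell lost 130515 CPM. With CPM from plain library totals the same genes gained 106229 CPM and lost 117450 CPM. The excess of loss over gain thus depends on the scaling. Most of the loss came from small folds in abundant genes: the 2069 genes that fell by less than 2-fold held 65.4% of it, and the 491 that fell by 4-fold or more (2.62%) held 12.7%. The gain was spread wider, with 38.1% in the 2260 genes that rose by less than 2-fold and 30.8% in the 678 that rose by 4-fold or more (3.62%). Of those 678 genes, 444 gained under 10 CPM each and the median gain was 2.73 CPM. Above a mean of 1000 CPM, 34 of 77 genes fell and 9 rose, and the net change over all 77 was -50602 CPM. The scaled CPM need not sum to the same total in both groups, so the size of such a net change depends on the scaling. Between 10 and 100 CPM, 1941 of 7148 genes rose and 1715 fell, and the net change over all of them was 4978 CPM. Under 1 CPM, where counts are few, 15.2% of 5260 genes passed the test in either direction.

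Lists of defence genes and of muscle genes took unequal parts of these shifts. Over 4 lists (acute-phase and antiprotease proteins, chemokines, interferon-induced GTPases and antiviral proteins, and antigen presentation), 87 of 102 tested genes rose and 8 fell. Together these risers held 11.8% of the CPM gained, a share that leaves out defence genes outside the 4 lists, such as Lcn2 and Csf3. The sarcomere and calcium lists, with 41 of 51 tested genes lower and 2 higher, held 32.8% of the CPM lost. The 20 genes with the largest gain held 23.4% of the gain, and the 20 with the largest loss held 33.7% of the loss.

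**Figure D1:**
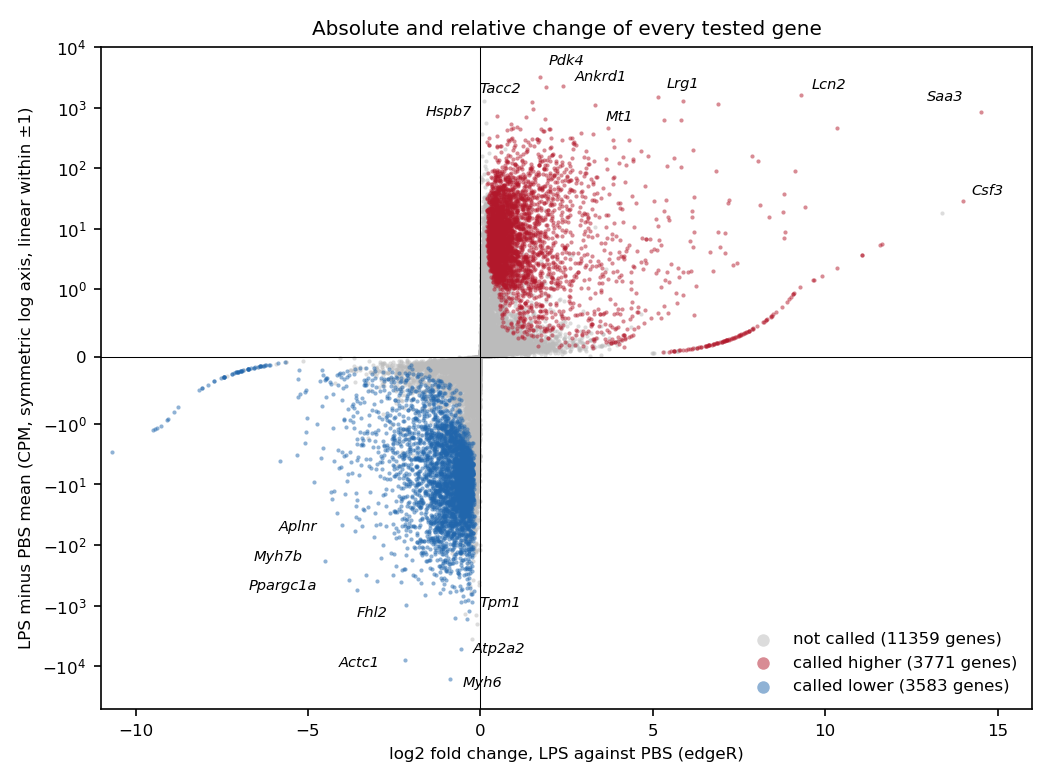
Each point is 1 of the 18713 tested genes, with its log2 fold change after LPS on the x axis and the difference of the group means in CPM on the y axis (symmetric log axis), coloured by call. Myh6 and Actc1 lie at the bottom, Pdk4 and Ankrd1 at the top with modest folds, and Csf3, listed at 0 in all PBS libraries, far to the right with a small gain. The curved rows of points at the outer edges are genes at 0 in 1 group, whose fitted fold is no bound.

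The heart muscle's own genes led the losses. Myh6 encodes the main myosin heavy chain of the adult mouse heart, and it lay at 35097, 37647, 35932 and 33759.8 CPM in the 4 PBS libraries and at 19921, 18878, 21298 and 17239 CPM in the 4 LPS libraries. The groups did not overlap, and the mean dropped by 16275 CPM (log2 fold change -0.88 ± 0.08 SE, adjusted p = 1.66e-07), which is 12.5% of everything lost. In a bulk tissue, fewer cells of a type and less RNA per cell cannot be told apart, here and in every muscle gene below. Actc1, the cardiac alpha-actin of the thin filament, stood at 10642, 11867, 9002 and 9812 CPM after PBS and at 2126, 1947, 2868 and 2161 CPM after LPS (log2 fold change -2.18 ± 0.18 SE, adjusted p = 8.34e-08). All 4 LPS values lay far below the lowest PBS value. Per kilobase of annotated exon, a rough scale for comparing genes with each other, Actc1 lost more than Myh6. The level of Actc1 went from 6385 to 1406 CPM per kb, against 5294 to 2875 CPM per kb for Myh6.

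Of the 25 sarcomere and Z-disc genes tested, 20 fell and 2 rose, with a median log2 fold change of -0.45 (all genes, 0.01). Besides Myh6 and Actc1 the largest losses were in Mybpc3, the myosin-binding protein C of the thick filament (-0.72 ± 0.08), and Tpm1, alpha-tropomyosin (-0.32 ± 0.07). The light chain genes Myl2 (-0.43 ± 0.08) and Myl3 (-0.35 ± 0.08) and the inhibitory troponin gene Tnni3 (-0.52 ± 0.11) fell by less than 2-fold. Their groups did not overlap, which the rule for naming the largest losses required. Tcap, the titin cap at the Z-disc (361 ± 123 to 671 ± 139.6 CPM, 0.89 ± 0.28), and Des, the intermediate filament desmin (0.19 ± 0.07), were the 2 that rose. Both calls were fragile: Tcap missed the threshold without PBS replicate 1, PBS replicate 4 or LPS replicate 4 (adjusted p = 0.0565, 0.0518 and 0.0586), and Des missed it under upper-quartile scaling (adjusted p = 0.196) and without LPS replicate 1 (0.175), LPS replicate 2 (0.12) and PBS replicates 1, 3 or 4 (0.132, 0.0656 and 0.107). Dsp, desmoplakin of the desmosomes that join cardiomyocytes, went from 1313 ± 127 to 720.0 ± 78.7 CPM (SD, n = 4, -0.87 ± 0.09). Thick filament, thin filament and cell junction genes were thus all represented among the losses.

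Within the list of stretch and fetal genes the members split. Ankrd1, a stress-responsive ankyrin repeat protein found at titin and in the nucleus, read 675, 489, 524 and 492 CPM after PBS and 1751, 2719, 2308 and 4636 CPM after LPS (log2 fold change 2.39 ± 0.32 SE, adjusted p = 1.68e-05), with LPS replicate 4 well above the other 3. Fhl2, a LIM-domain protein that also sits on titin, read 1243, 1365, 1275 and 1114 CPM after PBS and 253, 202, 389 and 281 CPM after LPS (log2 fold change -2.15 ± 0.24 SE, adjusted p = 3.05e-06). These titin partners moved in opposite directions. Myh7b, a slow myosin gene that hosts a muscle microRNA, was one of the 8 genes named for the lowest fold changes (mean log2 CPM of 2 or more), and it went from 171, 187, 222 and 192 CPM to 7.47, 9.93, 9.45 and 6.99 CPM (log2 fold change -4.51 ± 0.18 SE, adjusted p = 3.98e-11). Rcan1, an inhibitor of calcineurin, rose (1.65 ± 0.28), as did Ankrd2, a muscle relative of Ankrd1, from 0.203 ± 0.14 to 30.4 ± 11.9 CPM. The PBS level of Ankrd2 lies near a floor of 12 estimated counts (0.168 CPM), so no fold is given. The natriuretic peptide genes Nppa (-0.93 ± 0.21) and Nppb (-1.72 ± 0.48), usual markers of a strained heart, both fell. Of the 19 genes tested, 6 rose and 7 fell.

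The largest gains belonged to genes of fuel choice, stress and structure as much as to defence genes. Pdk4, the kinase that switches off pyruvate dehydrogenase and so spares glucose, stood at 878, 1131, 1157 and 2311 CPM after PBS and 5041, 5054, 4057 and 4114 CPM after LPS (log2 fold change 1.74 ± 0.28 SE, adjusted p = 0.00011). PBS replicate 4 was the highest of its group, and the lowest LPS value was still above it. Tacc2, a coiled-coil protein of microtubules and centrosomes, read 838, 588, 860.3 and 871 CPM and then 3191, 2943, 3190.2 and 2571 CPM (log2 fold change 1.91 ± 0.12 SE, adjusted p = 6.54e-09). Pdk4, Ankrd1 and Tacc2 together held 7.95% of all the CPM gained. Neat1, the long noncoding RNA that scaffolds nuclear paraspeckles, went from 673 ± 274 to 1895 ± 328 CPM (1.49 ± 0.23), and Clic4, a chloride intracellular channel protein, from 503 ± 27.3 to 1436 ± 555 CPM (1.51 ± 0.22). Hspb7, a small heat shock protein of heart muscle, rose by 0.47 ± 0.07 on the log2 scale and gained 736 CPM. Rrad, a small GTPase that restrains L-type calcium channels, gained 658 CPM (1.88 ± 0.21).

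Some secreted defence proteins were nearly absent after PBS and others were not. Lcn2, a lipocalin that captures bacterial siderophores, read 2.48, 2.38, 2.26 and 3.1 CPM after PBS and 1735, 1856, 1469 and 1419 CPM after LPS (log2 fold change 9.31 ± 0.27 SE, adjusted p = 2.91e-12). Lrg1, a secreted leucine-rich glycoprotein, was already present after PBS at 37.8, 44.5, 48.4 and 46.1 CPM and reached 1484, 1808, 1490.4 and 1502 CPM (log2 fold change 5.15 ± 0.16 SE, adjusted p = 4.35e-12). Per kilobase of annotated exon, Lrg1 had the largest gain among called genes with an ordinary symbol and a matched length. Lrg1 went from 31.4 to 1116 CPM per kb, ahead of Mt2, Pdk4 and Mt1. The length merges the exons of all annotated transcripts of a gene, so this order depends on the annotation. Tacc2, with 15408 bases of merged exons, dropped from place 3 by CPM to place 25 on this scale. Saa3, the serum amyloid A made outside the liver, read 0.114, 0.0292, 0 and 0 CPM after PBS and 1054, 937, 837 and 596 CPM after LPS. Of its PBS libraries 2 were at 0 and 2 held a few estimated counts, so no fold is given. Csf3, the granulocyte growth factor G-CSF, was at 0 in all 4 PBS libraries and at 39.3, 31.6, 19.3 and 23.5 CPM after LPS. Set against a floor of 3 read pairs in each PBS library (12 estimated counts), this is at least 169-fold higher.

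**Figure D2:**
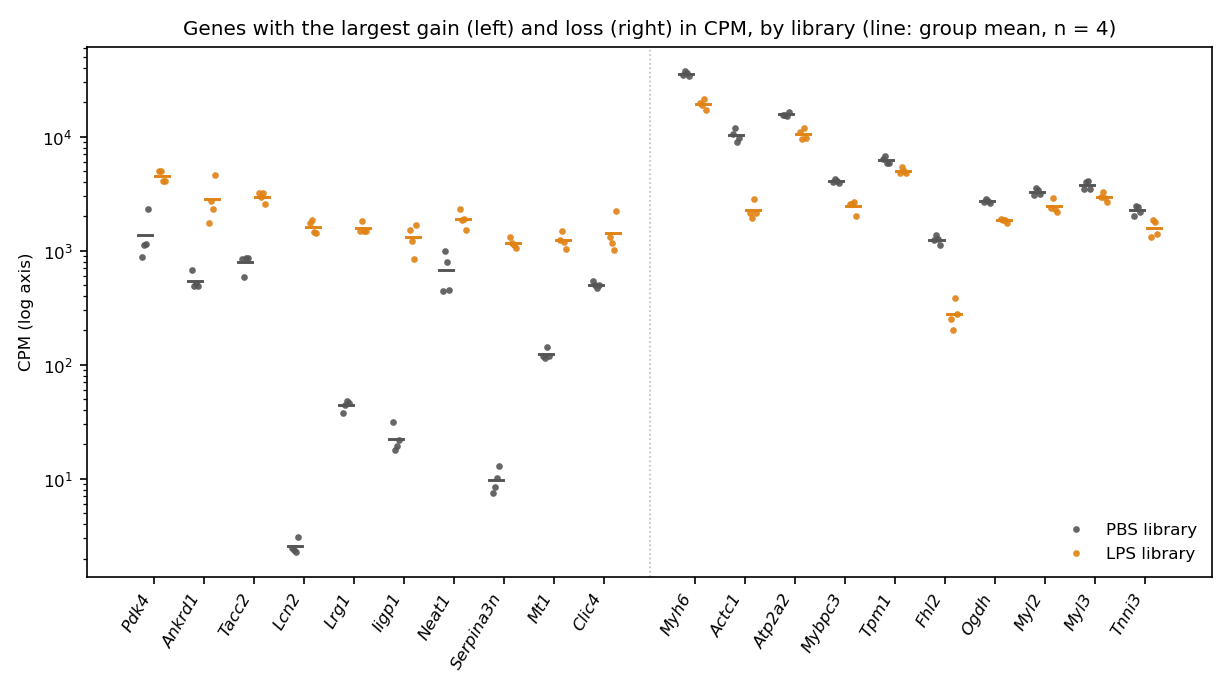
CPM on a log axis in each of the 8 libraries for the 10 genes with the largest gain (left) and the 10 with the largest loss (right) among called genes whose groups do not overlap, with lines at the group means (n = 4). Lcn2 climbs from 2.26 to 3.1 CPM to between 1419 and 1856 CPM, Pdk4 starts at 878 CPM or more, and Actc1 and Fhl2 show wide gaps among the losses.

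Promoters of the genes that moved far held fewer CpG pairs and other shares of several motifs than those of all tested genes, as a description without a test. RefSeq gives 300 bases around the start (250 before and 50 after it, build GRCm38.p6) for 423 genes that rose by 4-fold or more, 308 that fell by 4-fold or more and 12193 tested genes in all. The median number of CpG pairs was 7 in the risers and 9 in the fallers, against 20 in all. The letters of 9 motifs were searched on both strands, and the interferon and STAT letters can overlap each other. The kappa B letters GGANTTTCC of NF-kappa B stood in 5.67% of risers, 0.649% of fallers and 1.3% of all. The interferon letters GAAANNGAA stood in 18.9%, 6.17% and 7.31%, the STAT letters TTCNNNGAA in 13%, 5.84% and 6.90%, and the C/EBP letters TTGCNNAA in 15.8%, 9.09% and 8.55%. TATAAA was present in 19.9% of risers and 11.7% of fallers, against 7.86% of all. The metal response letters TGCNCNC, at 55.1%, 53.2% and 59.4%, and the E-box CACGTG, at 5.91%, 10.7% and 9.76%, were no more frequent in risers than in all. The estrogen-related receptor letters TCAAGGTCA and the MEF2 letters CTANTTATA were found in at most 1.62% of any set. A match describes letters in this window, not a site that a factor uses.

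The promoters of 5 genes are shown because they belong to genes with very large shifts and differ in their letters. The first pair are the 2 largest losses, and the others are gains with immune-type letters, of which Saa3 and Igtp were chosen after their values were seen. Each runs 5′ to 3′ on the gene's strand in lower case with every motif match in capitals. Myh6 and Actc1 carry TATAAA and metal response letters, Lcn2 carries C/EBP letters, Saa3 carries interferon letters followed by C/EBP letters, and Igtp carries STAT letters followed by interferon letters. The RefSeq start lies 320 bases (Myh6), 673 bases (Actc1), 513 bases (Lcn2) and 24 bases (Saa3) from the gene start of the GENCODE annotation, and at the same base for Igtp.
Myh6 (chr14:54966558-54966857, minus strand): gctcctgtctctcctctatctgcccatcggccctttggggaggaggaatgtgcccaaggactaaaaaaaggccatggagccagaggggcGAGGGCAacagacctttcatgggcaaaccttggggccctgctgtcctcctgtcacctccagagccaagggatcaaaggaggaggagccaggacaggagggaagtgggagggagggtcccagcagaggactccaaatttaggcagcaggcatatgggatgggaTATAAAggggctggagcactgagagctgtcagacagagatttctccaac
Actc1 (chr2:114052826-114053125, minus strand): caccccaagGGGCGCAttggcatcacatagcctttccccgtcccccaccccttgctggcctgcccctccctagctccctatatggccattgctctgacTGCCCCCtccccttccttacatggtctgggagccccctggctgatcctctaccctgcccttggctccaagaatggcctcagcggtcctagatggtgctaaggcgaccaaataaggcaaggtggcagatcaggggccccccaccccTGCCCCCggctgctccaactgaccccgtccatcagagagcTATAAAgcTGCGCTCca
Lcn2 (chr2:32387690-32387989, minus strand): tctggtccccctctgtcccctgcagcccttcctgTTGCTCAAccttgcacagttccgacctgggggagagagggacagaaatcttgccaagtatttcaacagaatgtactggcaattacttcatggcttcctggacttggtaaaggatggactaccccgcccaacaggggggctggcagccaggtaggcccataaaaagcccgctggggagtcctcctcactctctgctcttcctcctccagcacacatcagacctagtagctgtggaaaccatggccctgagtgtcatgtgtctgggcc
Saa3 (chr7:46715627-46715926, minus strand): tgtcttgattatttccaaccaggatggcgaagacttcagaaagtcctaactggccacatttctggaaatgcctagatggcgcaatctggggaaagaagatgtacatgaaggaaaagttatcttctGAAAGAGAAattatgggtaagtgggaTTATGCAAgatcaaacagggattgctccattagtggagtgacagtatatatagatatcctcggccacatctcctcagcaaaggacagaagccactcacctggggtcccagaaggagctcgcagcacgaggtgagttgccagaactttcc
Igtp (chr11:58199306-58199605, plus strand): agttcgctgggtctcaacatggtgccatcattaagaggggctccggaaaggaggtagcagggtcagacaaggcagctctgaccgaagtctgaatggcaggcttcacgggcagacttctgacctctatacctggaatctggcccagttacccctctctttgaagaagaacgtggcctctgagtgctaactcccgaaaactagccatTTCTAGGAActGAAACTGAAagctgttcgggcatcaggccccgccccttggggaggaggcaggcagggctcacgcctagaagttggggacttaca

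Genes of calcium handling and electrical activity fell in most cases. Of 26 tested genes of this list 21 fell and none rose, with a median log2 fold change of -1.04, and 14 fell by 2-fold or more. Atp2a2, the SERCA2 pump that refills the sarcoplasmic reticulum, read 15612, 15589, 15156 and 16469.5 CPM after PBS and 11033, 9551, 11861 and 9754 CPM after LPS (log2 fold change -0.57 ± 0.07 SE, adjusted p = 8.49e-06), so that its mean dropped by 5157 CPM. Casq2, the calcium store protein calsequestrin, went from 703 ± 75 to 273 ± 45.7 CPM (-1.36 ± 0.15). Jph2, the junctophilin that tethers the T-tubule to the reticulum, went from 617 ± 164 to 189 ± 61.3 CPM (-1.71 ± 0.28), and the calcium-binding Hrc fell as well (-0.76 ± 0.07). Srl, sarcalumenin of the same membrane system, dropped by 623 CPM (-1.16 ± 0.12). The strongest fold of the list was in Kcnk3, a background potassium channel, at 358, 384, 423 and 358 CPM after PBS and 54.3, 49.6, 109 and 53 CPM after LPS (log2 fold change -2.52 ± 0.24 SE, adjusted p = 4.08e-07).

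Receptor and cAMP signalling moved less evenly. Of 23 tested genes of adrenergic and cAMP signalling 11 fell and 3 rose (Pde4b, Grk5 and Gnai2). Adcy6, a main cardiac adenylyl cyclase, went from 391 ± 8.22 to 172 ± 34.8 CPM (-1.18 ± 0.13), while Pde4b, which degrades cAMP, went from 27.1 ± 3.59 to 173 ± 45.1 CPM (2.67 ± 0.24). Grk5, a kinase that desensitises receptors, rose (0.53 ± 0.12), as did the inhibitory G protein subunit gene Gnai2 (0.50 ± 0.08). The kinase subunit gene Prkar1a fell (-0.34 ± 0.08), and so did Rgs5 (-1.0 ± 0.08), a regulator of G protein signalling that is also a pericyte marker.

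Several regulators of mitochondrial metabolism fell steeply. Ppargc1a, the coactivator PGC-1alpha, read 508, 439, 321 and 328 CPM after PBS and 18.6, 23.4, 36.6 and 34.9 CPM after LPS (log2 fold change -3.81 ± 0.38 SE, adjusted p = 7.83e-07). Ppara, intact in these mice, read 59.3, 37.4, 47.7 and 56.4 CPM and then 10.1, 7.23, 13.1 and 14.7 CPM (log2 fold change -2.15 ± 0.28 SE, adjusted p = 1.25e-05). Neither gene's groups overlapped. Esrra, an estrogen-related receptor that works with PGC-1alpha, fell (-1.23 ± 0.15), as did its relative Esrrg (-2.26 ± 0.19). Of the 24 cardiac transcription factors and coactivators tested 13 fell, among them Srf (-0.83 ± 0.16) and Gata4 (-1.0 ± 0.11), and Hey2 alone rose (0.70 ± 0.22), a call that missed the threshold without LPS replicate 2 (adjusted p = 0.0589).

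The tricarboxylic acid cycle was lower in most of its genes, by small folds. Of 25 tested genes 21 fell and none rose, none by 2-fold, and the median log2 fold change was -0.31. Ogdh, a subunit of the oxoglutarate dehydrogenase complex, read 2693, 2841, 2718 and 2645 CPM after PBS and 1896, 1857, 1877 and 1739 CPM after LPS (log2 fold change -0.56 ± 0.06 SE, adjusted p = 1.80e-06). The citrate synthase gene Cs (-0.37 ± 0.06) and the malate dehydrogenase gene Mdh1 (-0.40 ± 0.11) also fell. Of the 25 genes of mitochondrial import, ribosome and translation 16 fell and 2 rose (Tomm20, 0.19 ± 0.07, and Mrps18b, 0.75 ± 0.11), with the chaperonin gene Hspd1 (-0.42 ± 0.09), the elongation factors Gfm1 (-0.41 ± 0.07) and Tufm (-0.41 ± 0.12) and the inner membrane translocase gene Timm23 (-0.37 ± 0.10) among those lower. Tomm20 missed the threshold under upper-quartile scaling (adjusted p = 0.16) and without PBS replicates 1, 3 or 4 or LPS replicates 1 or 2 (0.0586 to 0.124). Of 20 genes for breaking down branched-chain amino acids and ketone bodies 11 fell and none rose, Mccc1 of leucine breakdown among them (-0.48 ± 0.08).

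Genes of fatty acid oxidation changed by small folds. Of 25 tested genes 9 fell, 2 rose (Cpt2, 0.26 ± 0.10, and Eci2, 0.44 ± 0.07) and 14 did not pass the test. The call of Cpt2 was lost under upper-quartile scaling (adjusted p = 0.111) and without PBS replicates 1 to 3 or LPS replicates 1 to 3 (0.0547 to 0.135). Over the list the median log2 fold change was -0.09. Acsl1, which activates fatty acids (-0.44 ± 0.15), the medium-chain dehydrogenase gene Acadm (-0.38 ± 0.07) and the carnitine transferase gene Cpt1b (-0.34 ± 0.08) were the largest losses. The groups overlapped for Cpt1b, and Acsl1 missed the threshold without PBS replicate 4 (adjusted p = 0.0832) or without LPS replicate 1, 2 or 4 (0.0565, 0.0556 and 0.0548). Without PBS replicate 3, PBS replicate 4 or LPS replicate 4, 5 members fell in place of 9, and without PBS replicate 4 or LPS replicate 4, 4 members rose in place of 2. In lipid uptake and storage 9 of 24 genes rose and 5 fell (Plin3, Abhd5, Gpam, Agpat3 and Lpin1). Of the 5, Plin3 missed the threshold without LPS replicate 4 (adjusted p = 0.0931) or any other single library but LPS replicate 3 (0.0525 to 0.0721), and Agpat3 missed it without PBS replicates 2 to 4 or LPS replicates 1, 2 or 4 (0.0734 to 0.129). Plin2, the coat protein of lipid droplets, read 36.3, 51.2, 43.8 and 48.3 CPM after PBS and 300.3, 329.6, 279 and 274 CPM after LPS (log2 fold change 2.72 ± 0.14 SE, adjusted p = 7.85e-10). Pnpla2, the triglyceride lipase of droplets (1.14 ± 0.13), the droplet protein gene Plin4 (0.81 ± 0.11) and Angptl4, an inhibitor of lipoprotein lipase (2.66 ± 0.41), rose too.

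Among glucose genes, forms of the same protein moved in opposite directions. Of 28 tested genes 13 fell and 7 rose. Slc2a4, the insulin-dependent transporter GLUT4, went from 405 ± 25.5 to 153 ± 18.6 CPM (-1.40 ± 0.10), and Slc2a1, the transporter GLUT1, from 19.1 ± 1.39 to 39.3 ± 5.73 CPM (1.04 ± 0.11). Pfkfb2 fell from 77.4 ± 15.5 to 13.8 ± 2.99 CPM (-2.49 ± 0.25) while Pfkfb3, another enzyme that sets the level of fructose bisphosphate and with it glycolysis, rose from 6.94 ± 0.449 to 66.4 ± 12.8 CPM (3.26 ± 0.18). Hk2, the muscle hexokinase, read 515, 505, 389 and 336 CPM after PBS and 100.1, 97.5, 123 and 145 CPM after LPS (log2 fold change -1.91 ± 0.21 SE, adjusted p = 1.99e-06). The phosphofructokinase gene Pfkm (-0.83 ± 0.07) and the glycogen phosphorylase gene Pygm (-0.58 ± 0.08) fell.

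Energy buffering and purine handling also split. Of 23 tested genes 13 fell and 8 rose. The creatine kinases Ckm (-0.34 ± 0.09) and Ckmt2 (-0.33 ± 0.08) and the adenylate kinase gene Ak1 (-1.19 ± 0.13) fell, with overlap between the groups for Ckmt2. Xdh, the xanthine oxidoreductase that makes uric acid, read 149, 131, 182 and 190.1 CPM after PBS and 541, 489, 397 and 873 CPM after LPS (log2 fold change 1.82 ± 0.26 SE, adjusted p = 2.89e-05). Of 19 genes of NAD and tryptophan metabolism 6 fell and 5 rose (Nampt, Ido1, Cd38, Parp9 and Parp14), against 19.1% and 20.2% of all tested genes. Nampt, the rate-limiting enzyme of NAD salvage, went from 167 ± 27.6 to 436 ± 119.7 CPM (1.39 ± 0.18). The NAD-consuming Parp9 (2.21 ± 0.23) and Parp14 (2.22 ± 0.29) rose. Nnt, the gene of the mitochondrial transhydrogenase, had the largest loss of CPM in this list (-0.62 ± 0.23), while 2 other members fell by 2-fold or more. The groups of Nnt overlapped, and its call was lost without PBS replicates 1 or 2 (adjusted p = 0.0664 and 0.151) or LPS replicates 1, 2 or 3 (0.11, 0.124 and 0.0824). Of 22 genes of arginine, polyamine and tetrahydrobiopterin metabolism 8 rose and 5 fell (Amd1, Sms, Pts, Gchfr and Ddah1), and 2 to 3 fell in place of 5 without PBS replicates 1, 2 or 4 or LPS replicates 3 or 4. Single calls were lost for Sms without PBS replicates 1 or 4 or LPS replicates 1, 3 or 4 (adjusted p = 0.0638 to 0.151), for Gchfr without PBS replicates 2 to 4 or LPS replicates 1, 3 or 4 (0.0582 to 0.142) and for Ddah1 without PBS replicates 1, 2 or 4 or LPS replicates 2 or 4 (0.0535 to 0.122). Odc1, which makes putrescine, rose (0.86 ± 0.16) and Amd1, which supplies the aminopropyl donor, fell (-0.83 ± 0.19). Nos3, the endothelial nitric oxide synthase, went from 60 ± 7.68 to 125 ± 16.7 CPM (1.06 ± 0.13), whereas the inducible Nos2 did not pass the test (8.8 ± 1.38 to 9.54 ± 4.37 CPM, adjusted p = 0.83).

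Genes for making and breaking proteins rose together by small folds. Of 24 ribosome biogenesis genes 22 rose and none fell (median log2 fold change 0.76), of 28 cytosolic ribosomal protein genes 25 rose and none fell (0.46), and of 26 constitutive proteasome genes 22 rose and none fell (0.48). Of these 78 genes 3 rose by 2-fold or more (Ddx21, Nop16 and Rrp12), and the risers held 3.09% of the CPM gained. Ncl, nucleolin, read 185, 176, 158 and 194 CPM after PBS and 298, 308, 233 and 330.3 CPM after LPS (log2 fold change 0.71 ± 0.10 SE, adjusted p = 1.84e-05). Npm1, nucleophosmin (0.83 ± 0.07), and the helicase gene Ddx21 (1.05 ± 0.11) rose with it. Rps6 of the small ribosomal subunit went from 197 ± 6.12 to 328 ± 40.5 CPM (0.73 ± 0.08) and Psmc1, an ATPase of the proteasome cap, from 95 ± 3.52 to 147 ± 12.2 CPM (0.63 ± 0.07). Ribosomal protein genes have many processed pseudogenes, and counts may be shared with them. Of 1246 tested processed pseudogenes 134 rose and 33 fell, 13.4% in all, against 39.3% of all tested genes.

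Ubiquitin and folding genes moved in both directions. Of 25 atrophy, autophagy and lysosome genes 9 rose and 6 fell. Ubb, a polyubiquitin gene, read 454, 475, 482 and 441 CPM after PBS and 1284, 1198, 1003 and 1125 CPM after LPS (log2 fold change 1.31 ± 0.09 SE, adjusted p = 1.40e-08). Fbxo32, the muscle ubiquitin ligase atrogin-1, rose (1.36 ± 0.22) and so did the F-box gene Fbxo31, from 128 ± 10.3 to 417 ± 39 CPM (1.70 ± 0.11), while Trim63, the ligase MuRF1, did not pass (-0.32 ± 0.20, adjusted p = 0.224). Heat shock genes leaned down by number, with 11 of 22 lower and 3 higher (Hspb7, Hspb1 and Bag3). By CPM they did not, as the risers gained 1053 CPM and the fallers lost 716 CPM. The cochaperone gene Fkbp4 fell from 400.5 ± 38.5 to 186 ± 5.65 CPM (-1.11 ± 0.08) and the small heat shock gene Hspb8 fell (-0.58 ± 0.14), against Hspb1, which rose (0.98 ± 0.18). In the endoplasmic reticulum 12 of 25 genes rose and 1 fell: Xbp1, a regulator of the unfolded protein response, rose (0.82 ± 0.09), and Herpud1 of the degradation machinery went from 177 ± 23.3 to 99.2 ± 9.98 CPM (-0.83 ± 0.13). Of 23 genes of amino acid transport and the integrated stress response 13 rose and 1 fell (Gdf15, a secreted stress factor, -0.95 ± 0.29, adjusted p = 0.064 without PBS replicate 4), with Atf4 (0.85 ± 0.07) and the amino acid transporter genes Slc3a2 (0.92 ± 0.16) and Slc1a5 (0.86 ± 0.10) among the largest.

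**Figure D3:**
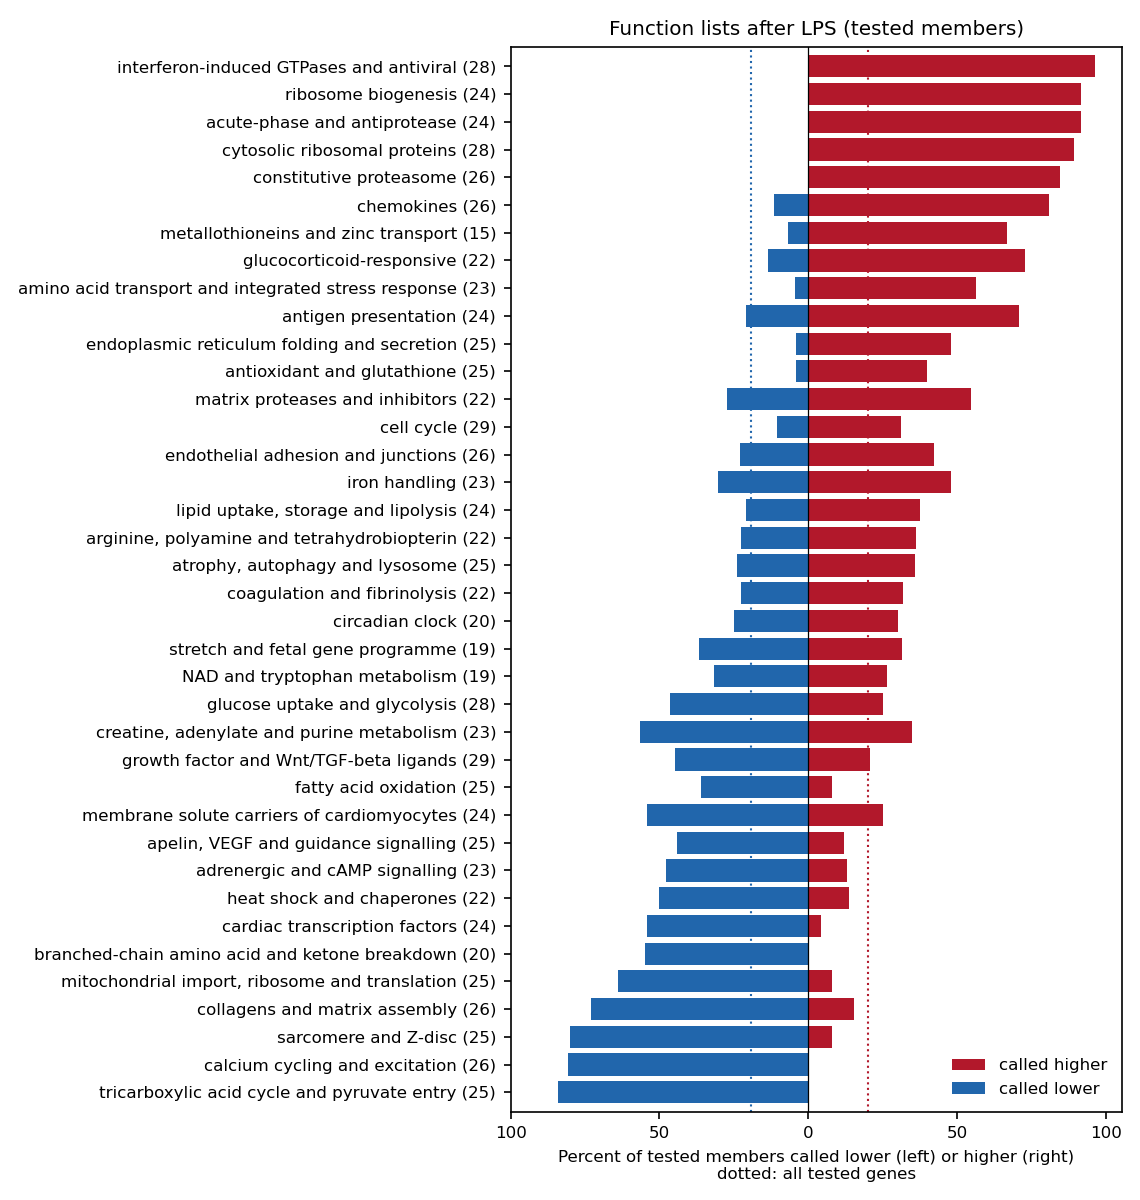
For each of the 38 function lists, the percent of tested members called higher (right) and called lower (left), with the number of tested members in brackets and dotted lines at the percent of all tested genes (20.2% and 19.1%). The tricarboxylic acid cycle, calcium and sarcomere lists lie at the bottom, and ribosome biogenesis and the proteasome lie at the top beside the interferon and acute-phase lists. The lists were chosen with results of these data known.

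Metal handling changed strongly. Mt1 and Mt2 encode metallothioneins, small proteins that bind zinc and copper. Mt1 read 118, 116, 142 and 120.2 CPM after PBS and 1244, 1486, 1191 and 1036 CPM after LPS (log2 fold change 3.32 ± 0.16 SE, adjusted p = 4.32e-10), and Mt2 read 15.3, 13, 14.5 and 20.5 CPM and then 676, 761, 599.9 and 509 CPM (log2 fold change 5.33 ± 0.36 SE, adjusted p = 1.16e-08). Slc39a14, an importer of zinc and iron, rose from 97.8 ± 10.3 to 409 ± 81.1 CPM (2.06 ± 0.13), Slc39a1 rose too (1.46 ± 0.09), and of the 15 genes of this list 10 rose and 1 fell, Slc39a2 (-1.79 ± 0.32). Among iron genes the transferrin receptor gene Tfrc went from 71.6 ± 32 to 15.9 ± 1.94 CPM (-2.17 ± 0.30), while the exporter gene Slc40a1, ferroportin, went from 21.8 ± 8.38 to 95.3 ± 15.1 CPM (2.13 ± 0.36) and the ferritin heavy chain gene Fth1 rose (0.50 ± 0.11). Ceruloplasmin, Cp, went from 71.6 ± 13.7 to 294 ± 14.5 CPM (2.04 ± 0.13) and the metalloreductase gene Steap4 rose (1.92 ± 0.15). Of 23 iron genes 11 rose and 7 fell.

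Of 25 antioxidant genes 10 rose and 1 fell. The thioredoxin reductase gene Txnrd1 (1.45 ± 0.16), the glutathione synthesis gene Gclm (1.78 ± 0.18) and their regulator Nfe2l2 (0.72 ± 0.11) rose. The 1 that fell was Sod2, the mitochondrial superoxide dismutase, which read 423, 468, 439 and 462 CPM after PBS and 369, 361, 364 and 358 CPM after LPS (log2 fold change -0.30 ± 0.06 SE, adjusted p = 0.000792) and is a gene that inflammatory signals are known to induce in many cells. Its groups did not overlap.

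Genes that glucocorticoids are known to induce were mostly higher. Of 22 tested genes 16 rose and 3 fell, with a median log2 fold change of 1.38, and several of them (Pdk4, Lcn2, Mt1) are also induced by other signals. The 3 that fell were the glucocorticoid receptor gene itself, Nr3c1 (-0.55 ± 0.15), and 2 transcription factors that it is known to induce, Klf15 (70.5 ± 9.64 to 39.5 ± 2.72 CPM, -0.83 ± 0.20) and Zbtb16 (-0.51 ± 0.17). Zbtb16 missed the threshold without PBS replicates 1, 3 or 4 or LPS replicates 1, 2 or 4 (adjusted p = 0.0523 to 0.0819). Fkbp5, a brake on the glucocorticoid receptor, went from 59.6 ± 7.07 to 374 ± 18.6 CPM (2.65 ± 0.16). The clock gene Per1, which belongs to this list and to the clock list, went from 35.4 ± 9.26 to 133 ± 15.1 CPM (1.91 ± 0.29). In the clock list 6 of 20 genes rose and 5 fell (Arntl, Npas2, Nr1d1, Hlf and Csnk1e), against 20.2% and 19.1% of all tested genes. Bhlhe40 rose (1.10 ± 0.15) and Arntl, the partner of CLOCK, fell (-0.87 ± 0.14). Nr1d1 read 25.1 to 116 CPM among the PBS hearts, its groups overlapped, and without PBS replicate 3 its call was lost (adjusted p = 0.267), as it was without PBS replicate 2 or LPS replicates 1, 3 or 4 (0.0609, 0.117, 0.0816 and 0.0767). The hour of death is not in the labels.

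Of 29 cell cycle genes 9 rose and 3 fell (Ccnd2, Cdkn1c and Cdkn2c). Cdkn2c missed the threshold without PBS replicates 1, 2 or 4 or LPS replicates 1, 3 or 4 (adjusted p = 0.0806 to 0.153). Cdkn1a, the inhibitor p21, read 186, 116, 112 and 138 CPM after PBS and 378, 415, 360.3 and 349.5 CPM after LPS (log2 fold change 1.44 ± 0.18 SE, adjusted p = 9.85e-06), and Gadd45g rose (2.21 ± 0.37). Ccnd2, cyclin D2 (-1.16 ± 0.15), and the inhibitor gene Cdkn1c (-1.81 ± 0.12) fell. Mki67, the usual marker of cycling cells, did not pass the test (5.03 ± 3.37 to 2.12 ± 0.469 CPM, adjusted p = 0.0961) but did without PBS replicate 4 (-1.54, adjusted p = 0.0391) and with DESeq2 (adjusted p = 0.0422). Among growth factors Inhbb, a subunit of activin B, went from 6.56, 6.86, 7.96 and 6.42 CPM to 171, 169.7, 145 and 118 CPM (log2 fold change 4.44 ± 0.29 SE, adjusted p = 1.07e-08), and Igf1 fell from 6.28 ± 0.692 to 0.778 ± 0.235 CPM (-3.01 ± 0.35). Of 29 growth factor genes 13 fell and 6 rose.

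Vascular growth signals moved in both directions. Vegfa, the main endothelial growth factor made by cardiomyocytes, read 362, 364, 265 and 299 CPM after PBS and 66.4, 51.7, 90.2 and 73.4 CPM after LPS (log2 fold change -2.19 ± 0.18 SE, adjusted p = 7.27e-08). Its receptor gene Kdr (-0.76 ± 0.12) and the related Vegfb (-0.38 ± 0.09) fell. Pgf, placental growth factor of the same family, went the other way, from 5.58, 4.14, 6.29 and 4.38 CPM to 73.2, 70, 63.5 and 95.5 CPM (log2 fold change 3.89 ± 0.20 SE, adjusted p = 8.18e-10). Aplnr, the apelin receptor, was among the 8 genes with the lowest fold, at 53.8, 59.7, 48 and 36.5 CPM and then 2.87, 3.13, 4 and 2.17 CPM (log2 fold change -4.02 ± 0.24 SE, adjusted p = 3.48e-09). Of the 25 genes of this list 11 fell and 3 rose (Pgf, Ednrb and Sema3g). Of 26 genes of endothelial adhesion and junctions 11 rose and 6 fell (median log2 fold change 0.22). Among the risers were Icam1, from 13.6 ± 1.79 to 101 ± 18.4 CPM (2.90 ± 0.14) and Selp, P-selectin, from 0.181 ± 0.0496 to 26.6 ± 7.1 CPM (7.19 ± 0.68). S1pr1, the sphingosine receptor that supports the endothelial barrier, rose too (1.22 ± 0.13), and the junction gene Jam2 fell (-0.73 ± 0.08). Of 10 endothelial markers 3 rose (Fabp4, Ly6c1 and Esam) and 2 fell (Kdr and Eng), against 20.2% and 19.1% of all tested genes. Fabp4 missed the threshold without LPS replicate 2 (adjusted p = 0.0736). The summed level of the list was 1627 to 1745 CPM after PBS and 1523 to 2047 CPM after LPS. Of 22 coagulation and fibrinolysis genes 7 rose and 5 fell (F13a1, Vwf, Serpind1, Plau and Thbs1), against 20.2% and 19.1% of all tested genes. Vwf missed the threshold without PBS replicates 1 to 3 or LPS replicates 2 or 4 (adjusted p = 0.0546 to 0.0748), and Serpind1 without PBS replicate 4 (0.0664). The plasminogen activator gene Plat (1.51 ± 0.13) and the urokinase receptor gene Plaur (3.73 ± 0.16) both rose.

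Most matrix genes fell, and Col4a1 and Col4a2 were among the exceptions, while the other collagen IV chains of the list did not rise. Of 26 genes of collagens and matrix assembly 19 fell and 4 rose (Col4a1, Col4a2, Dcn and Lox). By CPM the list did not fall: its risers gained 1126 CPM and its fallers lost 643 CPM. The summed level averaged 3471 CPM after PBS and 3817 CPM after LPS, with overlap between the groups. Col4a1, a chain of the basement membrane collagen IV, read 752, 675, 559 and 493 CPM after PBS and 1220.4, 1063, 1269.5 and 1061 CPM after LPS (log2 fold change 0.90 ± 0.12 SE, adjusted p = 1.21e-05), and Col4a2, which is transcribed from the same promoter region, rose with it (0.77 ± 0.11). Eln, elastin, read 99.9, 129, 107 and 79.9 CPM and then 17.8, 28.1, 39.8 and 18.6 CPM (log2 fold change -2.0 ± 0.24 SE, adjusted p = 5.45e-06). The crosslinking enzyme gene Lox went from 6.11 ± 2.04 to 47.5 ± 5.42 CPM (2.96 ± 0.23), and the proteoglycan gene Dcn rose (0.50 ± 0.10). Of 22 matrix proteases and inhibitors 12 rose and 6 fell. The aggrecanase-type Adamts1 rose from 41.4 ± 10.2 to 283 ± 26.8 CPM (2.77 ± 0.21), Adamts9 (1.70 ± 0.18) and the inhibitor gene Timp3 (1.02 ± 0.11) rose, and the membrane protease gene Mmp15 fell from 162 ± 24.5 to 26.6 ± 5.7 CPM (-2.60 ± 0.18). Fibroblast markers fell in the same libraries, 6 of 10 lower and 1 higher (Dcn), with a summed level of 1794 to 2061 CPM after PBS and 1104 to 1511 CPM after LPS. Their part in the matrix result was not tested.

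Defence genes rose in most members of their lists. Of 28 interferon-induced GTPase and antiviral genes 27 rose (the other was Gbp8), of 24 acute-phase genes 22 rose, of 26 chemokines 21 rose and 3 fell, and of 24 antigen presentation genes 17 rose and 5 fell (H2-Aa, H2-Ab1, H2-Eb1, Cd74 and H2-DMa). Igtp read 11, 14.4, 9.01 and 10.7 CPM after PBS and 765, 620.3, 345 and 833 CPM after LPS (log2 fold change 5.83 ± 0.35 SE, adjusted p = 3.54e-09). The LPS hearts differed among themselves here: the summed interferon list was 5204, 4111, 2749 and 7058 CPM in replicates 1 to 4, against 253 to 364 CPM after PBS. Cxcl9, a chemokine for T cells, went from 3.31, 3.25, 2.75 and 1.78 CPM to 232, 296, 114 and 155 CPM (log2 fold change 6.17 ± 0.42 SE, adjusted p = 1.53e-08). Cxcl12, which holds cells in tissues, was one of the 3 chemokines that fell, from 151, 171, 167 and 159 CPM to 46.5, 41.5, 77 and 38.1 CPM (log2 fold change -1.67 ± 0.17 SE, adjusted p = 1.29e-06), with Ccl6 (-1.56 ± 0.35) and Ccl21a (-1.34 ± 0.25). C3, the central complement protein, rose from 144 ± 61.3 to 584 ± 72 CPM (2.02 ± 0.28).

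Antigen presentation split by class along a single stretch of chromosome 17. Psmb9, Tap1, Psmb8 and Tap2, which cut peptides and carry them to class I molecules (GRCm38, 34181987 to 34216321), rose by 1.59 to 3.66 on the log2 scale. The next tested protein-coding genes, H2-Ob, H2-Ab1, H2-Aa and H2-Eb1 of class II (34238903 to 34316674), fell, the last 3 by 1.15 to 1.72. Tap1 went from 8.16 ± 0.947 to 104 ± 32.8 CPM (adjusted p = 7.10e-08), and H2-Aa read 44.3, 46.4, 36.5 and 44.5 CPM after PBS and 11.7, 11.9, 12.1 and 16.2 CPM after LPS (adjusted p = 0.000312). H2-Ob read 1.17, 0.395, 0.155 and 0.64 CPM after PBS and 0.0741, 0.158, 0 and 0.17 CPM after LPS, near the floor of 12 estimated counts, so no fold is given. It missed the threshold without PBS replicate 1 (adjusted p = 0.141), PBS replicate 4 (0.0704) or LPS replicates 1, 2 or 3 (0.0932, 0.055 and 0.0698). Outside the stretch, the class I genes B2m (2.0 ± 0.22) and H2-D1 (1.75 ± 0.20) rose. Class I heavy chain genes are near-identical copies of each other, and their counts may be split uncertainly. Macrophage markers fell in 7 of 15 and rose in 3 (Cd68, Fcgr1 and Cd14, with Cd68 at an adjusted p of 0.0572 to 0.0956 without PBS replicates 3 or 4 or LPS replicates 2, 3 or 4), with a summed level of 333 to 426 CPM after PBS and 210 to 281 CPM after LPS. B cell markers, 2 of 6 lower (Cd79a and Ighm, with Cd79a at an adjusted p of 0.0623 to 0.0749 without PBS replicates 2 or 4 or LPS replicates 1 to 3), summed to 3.83 to 5.63 CPM and then 0.658 to 1.91 CPM. The part of these cells in the class II result was not tested.

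**Figure D4:**
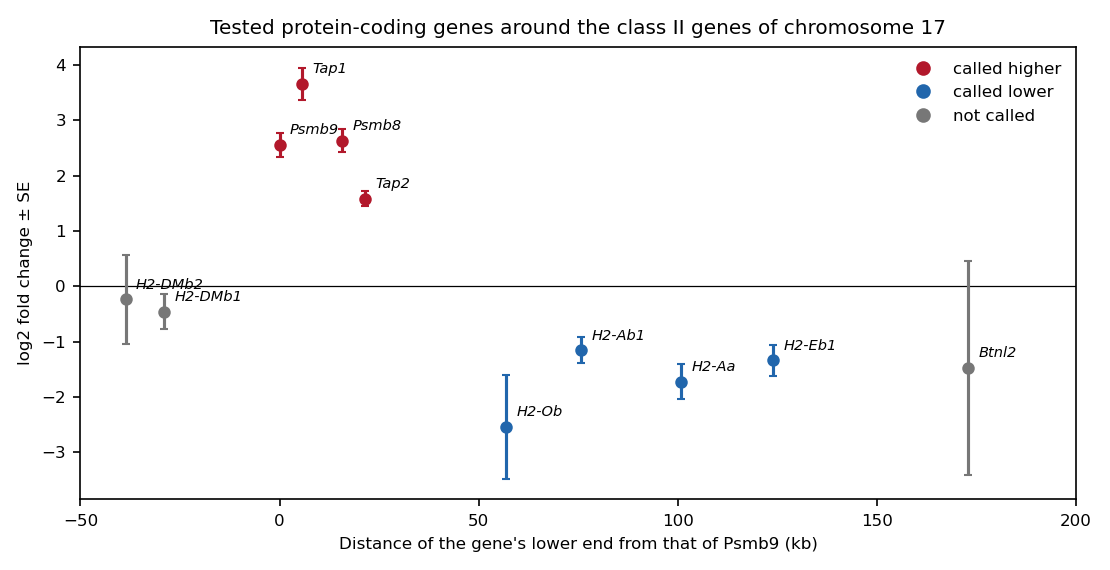
Log2 fold change after LPS (± SE) of the tested protein-coding genes around the class II genes of chromosome 17 by distance in kb from Psmb9. The 4 class I pathway genes lie above 0 (1.59 to 3.66) and 3 of the 4 class II genes beside them at -1.72 to -1.15. The fitted point of H2-Ob is no exact fold because its LPS level lies near the floor of 12 estimated counts, and grey points did not pass the test.

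Other neighbouring genes moved together. Runs of 4 or more adjacent tested protein-coding genes that all passed the test in 1 direction at 2-fold or more included 7 Serpina3 genes on chromosome 12 (104146382 to 104414329), 6 genes around Ifitm2 and Ifitm3 on chromosome 7, 5 Ccl genes and 5 Slfn genes on chromosome 11, and the Gbp genes on chromosomes 3 and 5. Falling runs held 6 Cd300 genes on chromosome 11 (114922781 to 115048409), receptors of myeloid cells with a summed level of 8.67 CPM after PBS and 1.18 CPM after LPS. A further pair of falling runs lay on chromosome 11: Abca8b, Abca8a, Abca9 and Abca6, lipid transporters, from 85.3 to 13.9 CPM in sum, and Hoxb5, Hoxb4, Hoxb3 and Hoxb2, from 5.71 to 1.77 CPM in sum, with Hoxb5 past the threshold in the run's test but not without PBS replicates 1 to 4 taken singly (adjusted p = 0.0511 to 0.0925) or LPS replicates 2 to 4 (0.0507 to 0.0972). Members of the Serpina3, Gbp, Slfn and Cd300 families resemble each other closely, and reads may have been shared among them. How many such runs another order of the genes would give was not tested.

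Markers of other cells moved beside these results. The 13 tested neutrophil markers held 11 that rose and none that fell, and their sum went from 5.41 to 6.56 CPM after PBS to 72.0 to 130 CPM after LPS. Hdc, the histamine-making enzyme listed for neutrophils and for mast cells, made up most of that sum (1.94 ± 0.543 to 53 ± 13.8 CPM, 4.77 ± 0.28), while S100a8 reached 11.9, 4.68, 5.28 and 7.04 CPM. Of 8 cardiomyocyte markers 7 fell, and their sum was 58427 to 65046 CPM after PBS and 31579 to 36809 CPM after LPS. Smooth muscle markers fell in 7 of 7 and pericyte markers in 6 of 8. Schwann cell and neuronal markers, at a low level (13.3 to 18.5 CPM in sum), fell in 5 of 8 (among them Cdh19, Gfra3, Kcna1 and Dbh). None of 6 tested erythrocyte markers passed the test, and their sum varied from 99.9 to 658 CPM over the 8 hearts. Monocyte markers rose in 6 of 9 and fell in 2 (F13a1 and Fn1). Their part in the changes of the other gene lists was not tested.

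**Figure D5:**
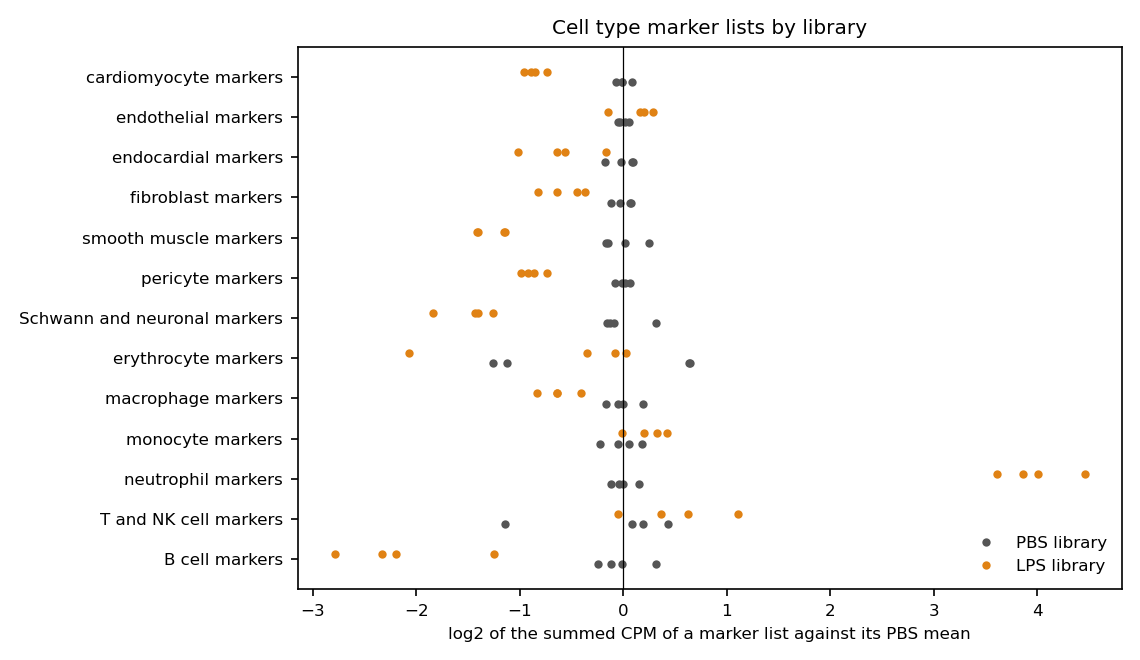
For 13 cell type marker lists, the log2 of the summed CPM in each of the 8 libraries against the mean of the PBS libraries. The neutrophil list stands far above PBS in all 4 LPS hearts, the cardiomyocyte, smooth muscle, pericyte and Schwann lists lie below PBS in all 4, and the erythrocyte list overlaps.

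Gene class and size differed between the sets, as a description. Of 14518 tested protein-coding genes 45.0% passed the test, and of 569 lincRNA genes 24.8%, many at low counts. Among protein-coding genes the median span was 17 kb for those that rose by 2-fold or more and 33.8 kb for those that fell by 2-fold or more, against 23.6 kb for all. Their exons had medians of 3.57 and 4.68 kb, against 4.36 kb for all. The lowest folds included the cadherin gene Cdh23 (13.7 ± 2.46 to 0.726 ± 0.362 CPM, -4.23 ± 0.28) and the matrix gene Papln (-4.29 ± 0.41). The lowest of those 8 named was Rtn4r, the Nogo receptor, at 5.46, 12.2, 9.41 and 9.95 CPM and then 0.311, 0, 0.456 and 0.522 CPM (log2 fold change -4.82 ± 0.56 SE, adjusted p = 4.05e-06). Of 24 membrane solute carriers 13 fell and 6 rose. The ADP/ATP carrier gene Slc25a4 fell (-0.24 ± 0.09) with overlapping groups, and missed the threshold without PBS replicates 2 or 3 (adjusted p = 0.116 and 0.0872) or LPS replicates 1 or 4 (0.0738 and 0.123). The phosphate carrier gene Slc25a3 fell (-0.30 ± 0.07). Slc10a6, a transporter of steroid sulfates, rose from 3.2, 2.82, 3.29 and 2.96 CPM to 159, 159.7, 119 and 162 CPM (log2 fold change 5.61 ± 0.21 SE, adjusted p = 2.92e-11), with no overlap between the groups.

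The LPS effect was also compared between genotypes, since PPARα is present in these hearts and absent from the cardiomyocytes of the other 8. No gene of 18713 differed in its LPS effect at an adjusted p under 0.05 (0%, edgeR quasi-likelihood interaction), 1075 had an unadjusted p under 0.05, limma-voom called 0 and DESeq2 called 55. The difference, deficient minus flox on the log2 scale, was 0.12 ± 0.11 SE for Myh6, -0.01 ± 0.39 SE for Pdk4, 0.09 ± 0.43 SE for Ankrd1 and 1.02 ± 0.48 SE for Ppargc1a. At 4 hearts a group these intervals leave room for moderate differences, so the tests do not show that the genotypes responded alike.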

How the data were processed

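RNA sequencing of heart tissue was deposited as 1 table per mouse. As deposited, each value is an estimated count per gene and symbol, with no normalization by the authors. Among tools, the submitters' processing notes list DESeq2 1.30.1, StringTie 1.3.3b, HISAT and fastp 0.23.2, with the GRCm38 build. Which of these made the counts is not given in the sources used here. Small values pile up at multiples of 4, so the total divided by 4 is nearer to the depth that sets precision, and the labels name a stranded kit without saying how strand was counted.

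Lines of the same symbol were summed (116 lines), and 27 date-like symbols (0.0644% to 0.0861% of the counts) were dropped. Values were rounded. edgeR 4.0.16 (R 4.3.3; filterByExpr, TMM scaling, quasi-likelihood test, Benjamini-Hochberg adjustment over 18713 genes) was fitted to 16 libraries as 4 group means with no covariate, and the LPS contrast of the flox groups was read. After a log2 fold change, ± gives its standard error, and after a level the SD over 4 libraries. CPM are scaled by the TMM factors, so values depend on that scaling. In simulated data only 67, 67 and 66 of 18713 genes were changed, by 0.5, 1 and 2 on the log2 scale. The changed genes had a PBS mean of at least 1 CPM. Of these, 25.4%, 74.6% and 89.4% were recovered, and 7.35% of calls were false. Far more genes passed the test in the real data, so these rates do not carry over to it. Nothing in the labels says that libraries share a litter or a day. The p-values measure the spread between these libraries.

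Gene coordinates and exon lengths are from GENCODE vM21 (GRCm38), with 53543 of 55278 symbols matched, and promoters are from RefSeq. An exon length merges the exons of all annotated transcripts of a gene and is not the length of the transcript expressed. Members and lists were chosen with earlier results of these data known. Named were Ppara and Myh6, the 15 largest gains and 15 largest losses of CPM, the 8 highest and 8 lowest folds at a mean log2 CPM of at least 2 (called, ordinary symbol, no overlap), up to 4 members per list by CPM change, and members of runs of neighbours. Named outside that rule, after their values were seen, were Abhd5, Agpat3, Angptl4, Ankrd2, Bag3, Ccl21a, Ccl6, Cd14, Cd38, Cd68, Cd74, Cdkn2c, Cpt2, Csnk1e, Dbh, Ddah1, Des, Eci2, Ednrb, Esam, Esrrg, Fcgr1, Fkbp5, Gbp8, Gchfr, Gdf15, Gnai2, Gpam, Grk5, H2-DMa, Hey2, Hlf, Ido1, Igf1, Kcnk3, Klf15, Lox, Lpin1, Mki67, Mrps18b, Nop16, Nos2, Npas2, Nppb, Nr3c1, Pfkfb3, Plau, Plin3, Pts, Rrp12, Selp, Sema3g, Serpind1, Slc2a1, Slc2a4, Slc39a2, Slc40a1, Sms, Tcap, Tfrc, Thbs1, Tomm20, Trim63 and Zbtb16. A few genes are not reported here. Alternatives were RLE, upper-quartile or plain totals, other filters, counts divided by 4, DESeq2 1.42.0, limma-voom 3.58.1, a fit of the 8 libraries alone, a replicate block and each library left out.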

Additional observations from a re-analysis of the deposited data

Results flagged for a closer look

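For 22 of 460 groups of 4 values of the genes named here, 1 library lay apart from the other 3 by more than Dixon's 95% limit for the gap relative to the group's range. Chance gives such a gap in about 1 of 20 groups, and the share here was 4.78%. LPS replicate 1 stood below the other 3 of its group for Cd68 (5.63 CPM, next 7.35 CPM). LPS replicate 2 stood above the other 3 of its group for Fkbp5 (401 CPM, next 368 CPM) and Lrg1 (1808 CPM, next 1502 CPM). LPS replicate 2 stood below the other 3 of its group for Fcgr1 (4.59 CPM, next 6.49 CPM) and Mccc1 (69.2 CPM, next 82.1 CPM). LPS replicate 3 stood above the other 3 of its group for Cpt1b (587 CPM, next 514 CPM) and Kcnk3 (109 CPM, next 54.3 CPM). LPS replicate 3 stood below the other 3 of its group for Acadm (725 CPM, next 777 CPM) and Slc10a6 (119 CPM, next 159 CPM). LPS replicate 4 stood above the other 3 of its group for H2-Aa (16.2 CPM, next 12.1 CPM) and Nr3c1 (38.8 CPM, next 27.1 CPM). LPS replicate 4 stood below the other 3 of its group for Mybpc3 (2023 CPM, next 2571 CPM). PBS replicate 1 stood above the other 3 of its group for Parp14 (30.8 CPM, next 26.8 CPM). PBS replicate 2 stood above the other 3 of its group for Bhlhe40 (60.7 CPM, next 44.5 CPM) and Ifitm3 (60.4 CPM, next 45.9 CPM). PBS replicate 2 stood below the other 3 of its group for Abca6 (2.75 CPM, next 3.98 CPM), Ly6c1 (86 CPM, next 103 CPM) and Tacc2 (588 CPM, next 838 CPM). PBS replicate 3 stood above the other 3 of its group for Tcap (544 CPM, next 318 CPM). PBS replicate 3 stood below the other 3 of its group for Nfe2l2 (61.9 CPM, next 74.4 CPM). PBS replicate 4 stood above the other 3 of its group for Abca8a (62.7 CPM, next 54.1 CPM). PBS replicate 4 stood below the other 3 of its group for Xbp1 (39.3 CPM, next 45.1 CPM). No cause of these gaps was tested.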

How the results depend on the processing

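Under 18 alternatives none of the 223 named genes that passed the test changed direction. The direction of named genes that did not pass was not compared. Of all 227 named genes 202 kept their side of the threshold under each alternative that tested them. The counts of genes that rose or fell stayed within 1.5 times of the reported ones. The share of calls that were higher ran from 45.4% (upper-quartile scaling) to 51.5%, against 51.3%, and the median log2 fold change from -0.05 to 0.02. The CPM gained was 130596 and the CPM lost 176811 with mitochondrial genes left out of the totals. Upper-quartile scaling gave a gain of 87344 CPM and a loss of 146711 CPM. Plain totals gave a gain of 106229 CPM and a loss of 117450 CPM, closer to each other than the reported pair. The largest 20 gains held 23.9% of the gain with RLE factors, 25.1% with upper-quartile factors, 22.6% with plain totals and 23.8% to 24.3% with each library left out. The largest 20 losses held 33.2% to 35.3% of the loss with each library left out. Genes whose LPS effect differed between genotypes numbered 55 with DESeq2, 4 with the stricter filter, 4 with counts divided by 4, and 0 to 1 with each library left out. Replicate numbers did not pair the libraries (correlations of same-numbered deviations -0.02, 0.04, 0.04 and 0.01). With a replicate block 3249 genes rose and 3236 fell, 6202 of the 7354 reported calls among them, and fatty acid oxidation held 5 fallers in place of 9 and branched-chain amino acid breakdown 7 in place of 11. The stricter filter left 3 of 5 Schwann cell calls, and a fit of the 8 libraries alone left 3 of 5 coagulation fallers and 2 of 5 arginine and polyamine fallers. Depth limits genes under 1 CPM, and the cause of these shifts was not tested.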
